A study of Mus musculus with 36 samples.

Results

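Replication-dependent histone genes encode the bulk histones that package newly copied DNA. The members described here were the protein-coding genes of the RefSeq gene table (assembly GRCm38.p6, the build called mm10) whose symbols follow the H2ac, H2bc, H3c, H4c or H1f1 to H1f6 naming. That rule found 63 of 21887 protein-coding genes: 6 linker histone H1 genes, 17 H2A, 16 H2B, 12 H3 and 12 H4 genes. They lay in 2 clusters on chromosome 13 and 1 on chromosome 3. The first chromosome 13 cluster held 22 genes over 328 kb (chr13:21715711-22043658), the second 31 genes over 404 kb (chr13:23531044-23934913), and the chromosome 3 cluster 10 genes over 50.3 kb (chr3:96219885-96270192). On chromosome 11, where further histone genes sit, 0 symbols matched the rule. Members were short, with a median length of 492 bp against 17169 bp for all protein-coding genes, and 58 of the 63 were no longer than 1 kb.

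The study followed HA-tagged histone H4 in mouse chromatin by ChIP-seq, in which fragmented chromatin is pulled down through the tag and the DNA is sequenced. All 4 groups used here were mouse embryonic stem cells of the line labelled parental, without the HiraKO, H33DKO or DAXXKO ablations of other samples, and stably carried a PiggyBac transgene: an empty vector, H4WT_3HA (wild-type H4 with 3 HA tags), H4K91R_3HA (lysine 91 changed to arginine) or H4K91Q_3HA (lysine 91 changed to glutamine). Each group had 1 anti-HA pulldown, called against the input of its own line, and the other 32 of the 36 samples were not analysed here. After regions overlapping the empty-vector list were left out, 67078 regions remained in the H4WT list, 47898 in that of H4K91R and 14206 in that of H4K91Q, beside 3007 of the empty vector. The lists give no read numbers, so depth is unknown, and a longer list reaches more genes. With 1 library per group there is no replicate check, and none of the differences between lists below was tested. The labels do not say where the transgene was inserted, nor how many copies each line carried. Peak lists carry no expression values, so the labelled cell type was not checked against markers.

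These genes are transcribed mainly in S phase, in step with DNA replication. They have no introns, as a rule, and their mRNAs end in a conserved stem-loop, bound by SLBP, in place of a poly(A) tail. NPAT, a target of cyclin E and CDK2, gathers with the clusters in nuclear histone locus bodies and activates transcription. H3 and H4 form the central tetramer of the nucleosome, H2A and H2B add as dimers, and H1 binds the linker DNA. Lysine 91 of H4 lies in the globular part of the protein, where the tetramer meets the H2A and H2B dimers.

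The promoters of the 7 genes in which a called region had its summit are shown first, because the results below turn on these genes. RefSeq promoter windows, 250 bases before to 50 after the gene start, were found for 58 of the 63 members. H2bc4, H2bc21, H3c7, H3c1 and H4c14 had no entry. Each line runs 5′ to 3′ on the gene's strand, and capitals mark matches, on either strand, to CCAAT (bound by NF-Y), TATAAA (bound by the TATA-binding protein), TTTCGCGC and TTTGGCGC (both known E2F sites), AAACACA (H1 box), ATGCAAAT (octamer) or GGTCC (known from H4 promoters). The windows are H4c4 at chr13:23581318-23581617 (plus strand), H1f2 at chr13:23738557-23738856 (plus), H1f3 at chr13:23554782-23555081 (plus), H1f4 at chr13:23622509-23622808 (minus), H2ac8 at chr13:23571171-23571470 (minus), H2ac21 at chr3:96219635-96219934 (plus) and H2ac1 at chr13:23934187-23934486 (plus).
H4c4: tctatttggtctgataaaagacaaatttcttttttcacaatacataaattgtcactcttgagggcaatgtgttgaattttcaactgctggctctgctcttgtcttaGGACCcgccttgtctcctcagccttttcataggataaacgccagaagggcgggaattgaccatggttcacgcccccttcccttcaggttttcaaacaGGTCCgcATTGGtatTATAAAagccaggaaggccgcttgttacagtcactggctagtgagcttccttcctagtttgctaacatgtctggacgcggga
H1f2: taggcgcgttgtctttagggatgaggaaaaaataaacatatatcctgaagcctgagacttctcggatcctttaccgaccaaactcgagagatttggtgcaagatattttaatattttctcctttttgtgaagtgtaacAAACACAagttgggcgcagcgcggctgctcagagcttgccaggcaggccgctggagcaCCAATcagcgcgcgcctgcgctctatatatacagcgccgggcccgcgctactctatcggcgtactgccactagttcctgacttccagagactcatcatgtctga
H1f3: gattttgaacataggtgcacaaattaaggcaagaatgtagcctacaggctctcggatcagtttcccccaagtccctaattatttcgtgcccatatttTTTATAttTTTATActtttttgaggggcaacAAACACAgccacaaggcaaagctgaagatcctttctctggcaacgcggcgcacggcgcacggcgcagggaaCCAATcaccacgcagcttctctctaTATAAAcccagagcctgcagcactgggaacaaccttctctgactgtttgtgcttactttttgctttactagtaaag
H1f4: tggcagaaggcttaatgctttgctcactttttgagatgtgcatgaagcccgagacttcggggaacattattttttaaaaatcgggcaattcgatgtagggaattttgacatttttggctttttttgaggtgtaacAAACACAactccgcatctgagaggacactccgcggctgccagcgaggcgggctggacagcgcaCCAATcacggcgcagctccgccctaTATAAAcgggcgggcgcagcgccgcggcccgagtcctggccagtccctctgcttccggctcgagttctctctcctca
H2ac8: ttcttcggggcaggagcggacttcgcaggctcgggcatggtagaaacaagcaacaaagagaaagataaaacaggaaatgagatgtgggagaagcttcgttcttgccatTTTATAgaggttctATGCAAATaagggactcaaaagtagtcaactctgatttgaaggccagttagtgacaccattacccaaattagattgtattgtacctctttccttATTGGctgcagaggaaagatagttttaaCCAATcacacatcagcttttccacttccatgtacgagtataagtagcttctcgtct
H2ac21: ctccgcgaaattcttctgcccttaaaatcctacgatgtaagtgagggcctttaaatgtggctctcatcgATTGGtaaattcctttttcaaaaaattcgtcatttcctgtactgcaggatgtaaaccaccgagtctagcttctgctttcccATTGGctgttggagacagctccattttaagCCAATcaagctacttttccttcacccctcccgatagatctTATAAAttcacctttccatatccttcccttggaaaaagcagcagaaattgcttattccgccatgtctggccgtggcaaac
H2ac1: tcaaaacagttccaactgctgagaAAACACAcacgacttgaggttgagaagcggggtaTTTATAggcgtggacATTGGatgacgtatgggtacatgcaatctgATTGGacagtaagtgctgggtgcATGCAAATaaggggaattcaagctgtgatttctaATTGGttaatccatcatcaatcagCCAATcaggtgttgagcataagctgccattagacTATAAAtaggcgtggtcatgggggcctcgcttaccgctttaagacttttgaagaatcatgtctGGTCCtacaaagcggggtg

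The H1 windows shown share an arrangement. An H1 box match began at position −112 in H1f2, −122 in H1f3 and −115 in H1f4, counted from the gene start. A CCAAT match followed at −54, −51 and −52. The H4c4 window instead held GGTCC at −47, directly before a CCAAT match on the other strand at −40 and a TATAAA match at −32. Those in H2ac8 and H2ac1 held the octamer, the letters OCT1 binds, at −128 and −124. In H2ac1 the CCAAT letters occurred at 4 places. No match overlapped another in the printed windows. A match describes letters only and is not evidence that a factor was bound.

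Across all members the same letters were common. CCAAT was found in 51 of 59 windows (86.4%), against 37.4% of the 32851 windows in the table. It was in 100% of H1, H2A, H2B and H3 windows and in 3 of 11 H4 windows (27.3%). TATAAA was found in 34 windows (57.6%, against 13.6% of all). AAACACA was in 5 of 6 H1 windows (83.3%) and in 7.18% of all windows. The octamer was in 6 of 17 H2A and 7 of 15 H2B windows, in 0 windows of the other classes, and in 1.74% of all. GGTCC was in 10 of 11 H4 windows (90.9%) but also in 45.5% of all windows, so its presence separates H4 windows less. Of the E2F-type runs, TTTCGCGC was in 9 member windows (15.3%, against 0.323% of all), 5 of them H2A and 4 H2B, and TTTGGCGC was in 0 (0.514% of all). H4WT marked 8 members, as defined next. Their windows had a median GC content of 45.5%, against 45.3% in the 51 windows of unmarked members. The median number of CpG pairs was 9 (7 to 22) in marked and 12 (3 to 41) in unmarked members. Neither difference was tested.

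Few replication-dependent histone genes carried a called region. A gene was counted as marked where at least 1 region overlapped a window of 1 kb on either side of its start or of its end. H4WT marked 8 of 63 members, which is 12.7% (exact Clopper-Pearson 95% interval 5.65 to 23.5), while it marked 58.4% of all protein-coding genes. H4K91R marked 4 of 63, 6.35% (1.76 to 15.5), against 37.9% of all. H4K91Q marked 0 of 63 (0 to 5.69%) against 1.27% of all, and the empty vector marked 0 of 63 against 1.67% of all. For the last 2 lists the interval includes the share of all genes, so at this list length a lower share could not be seen. The intervals cover counting error only, and members that share a region are not independent. Without the H4 genes, given apart because the transgene carries an H4 coding sequence, H4WT marked 7 of 51 members (13.7%, 5.7 to 26.3) and H4K91R 4 of 51 (7.84%, 2.18 to 18.9). Altogether 7 members were marked by H4WT alone, 3 by H4K91R alone, 1 by both and 52 by neither. The same split over all protein-coding genes was not computed, so none of these 4 counts can be called high or low.

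**Figure D1:**
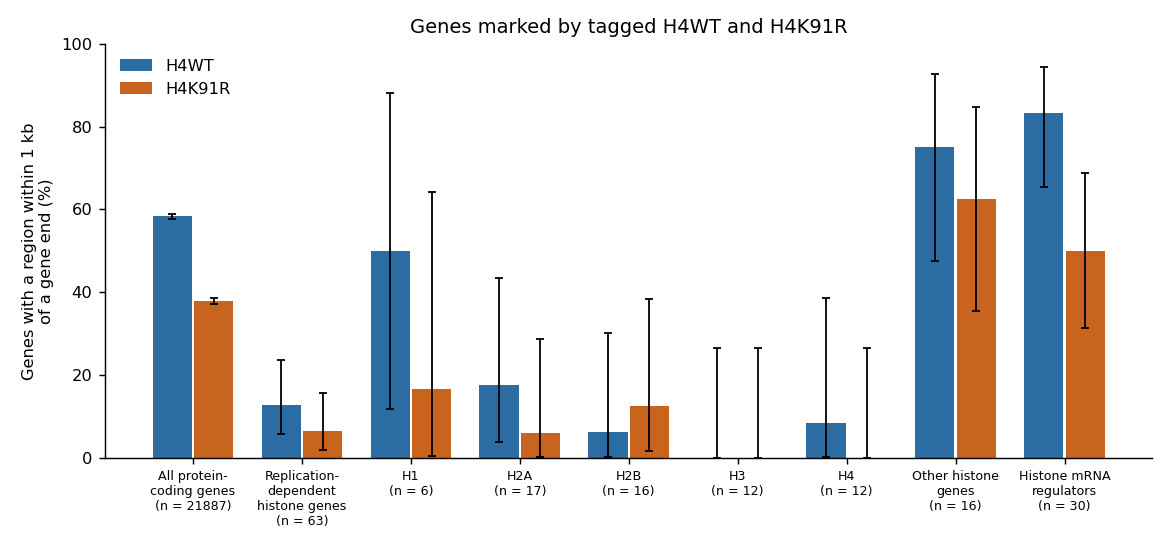
Bars give the percentage of genes with a region within 1 kb of a gene end in the H4WT and H4K91R lists, and error bars the exact 95% interval of each share (1 library per group). The 63 replication-dependent histone genes sit at 12.7% and 6.35%, below all protein-coding genes at 58.4% and 37.9%, while the 16 histone genes outside the rule, 13 of them longer than 1 kb, sit at 75% and 62.5%.

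Gene length moved with that difference. Of the 1577 protein-coding genes no longer than 1 kb, members included, H4WT marked 7.67%, H4K91R 4.38% and H4K91Q 0.888%. Without members, the share in 1519 short genes was 7.44% for H4WT and 4.34% for H4K91R, both inside the members' intervals. Many short genes are olfactory, vomeronasal or taste receptors, which stand in large silent arrays. Among the 519 short genes left without them, H4WT marked 19.5% (16.1 to 23.1) and H4K91R 10.4% (7.91 to 13.4), above the members' shares but within their intervals.

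Surroundings gave a second yardstick. The 94 other protein-coding genes within 500 kb of a cluster were marked at 25.5% by H4WT and 14.9% by H4K91R, and the 59 of them that are no receptor genes at 40.7% (28.1 to 54.3) and 23.7%. Apart from receptors, these neighbours are mostly genes over 1 kb, so length and place cannot be told apart here. Around the chromosome 3 cluster 16 of 32 neighbours were marked by H4WT (50%). Of its own 10 genes 2 were marked (20%, 2.52 to 55.6), both through 1 region, and that interval includes the neighbours' 50%. Promoter composition of members differed too: their windows had a median GC content of 45.3%, against 56.3% for protein-coding genes. The 3276 protein-coding genes whose first window had a GC content in the middle 50% of the members' values (41.3 to 49.8%) were marked at 23% by H4WT and 14% by H4K91R. By number of CpG pairs the picture differed, since the 3256 genes with 8 to 16 CpG pairs, the members' middle range, were marked at 65.4% and 41%. How far length, place and composition account for the members' share was not tested.

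The H1 genes, which encode the linker histones, had the largest marked share of the 5 classes in the H4WT list. H4WT marked 3 of 6 (50%, 11.8 to 88.2), namely H1f2, H1f3 and H1f4, which encode linker histone subtypes made in most dividing cells. With 6 genes the interval still includes the 58.4% of all protein-coding genes. Of other genes no longer than 1 kb H4WT marked 7.44%, below the interval, and without receptors 19.5%, inside it. The difference from either share was not tested. The H1f2 region (chr13:23739101-23739322) had the authors' fold enrichment of 5.71 over background and a −log10 q of 6.93. Its summit lay 367 bp into the 725 bp gene. The H1f3 region (chr13:23555316-23555542) had a fold of 4.57 with its summit at 422 of 776 bp. Both regions therefore lay wholly inside the gene, behind the promoters shown above. The H1f4 region (chr13:23622357-23622568) had a fold of 5.14, a summit at 109 of 782 bp, and covered the last 60 bases of the printed window. H1f1, H1f5 and H1f6, the last a testis-specific linker histone, were unmarked, with the nearest H4WT region 24.3, 165 and 42.6 kb away.

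H1f4 was the single member marked by both H4WT and H4K91R. The H4K91R region (chr13:23622030-23622261, fold 4.79, −log10 q 4.21) lay deeper in the gene, with its summit at 479 bp. The 2 regions did not overlap: 95 bases separated them. Over all members, 0 H4WT regions overlapped an H4K91R region. That count rests on 6 H4WT and 2 H4K91R regions. The share of all H4WT regions that overlap an H4K91R region was not computed, so the 0 cannot be called low. The H4K91R region in H1f4 also marked H2bc6, whose annotated start is 906 bp away. H2bc6 has the longest annotation of the members, 37455 bp, so this count rests on a gene model that starts near H1f4. H4WT came within 1233 bp of H2bc6, just outside the 1 kb window.

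Among the H2A and H2B genes, whose products pair as the dimers of the nucleosome, each H4WT region reached more than 1 gene. H4WT marked 3 of 17 H2A genes (17.6%, 3.8 to 43.4) and 1 of 16 H2B genes (6.25%, 0.158 to 30.2), through 2 regions. These intervals overlap, so the counts do not separate the 2 classes. H4WT marked 58.4% of all protein-coding genes and 7.44% of other genes no longer than 1 kb, the latter inside both intervals. The first (chr13:23570903-23571091, fold 4.93, −log10 q 4.69) had its summit 223 bp into H2ac8 and reached its divergent neighbour H2bc8. The summit lay at −403 bp from the start of H2bc8. The second (chr3:96219883-96220071, fold 4.33, −log10 q 3.85) had its summit 82 bp into H2ac21, covered the last 52 bases of the window printed for it, and reached H2ac20. Both were 189 bp wide, the smallest width in the H4WT list. H2bc21, 1001 bp from the second region, fell just outside the window. Of the unmarked H2A and H2B genes, H2bc7 at 2.67 kb and H2ac7 at 3.29 kb were the next nearest to an H4WT region after H2bc21 and H2bc6.

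H2ac1 and H2bc1 shared the stronger of the 2 H4K91R regions at members. They encode TH2A and TH2B, testis forms of H2A and H2B that are also stored in the egg, and they stand as a divergent pair at the far end of the second chromosome 13 cluster, a sub-cluster of 2 genes apart from the other 29. H4K91R had 1 region there (chr13:23934512-23934861), 350 bp wide, with a fold of 9.06 and a −log10 q of 13.2. Its summit lay 261 bp into the 477 bp H2ac1 gene and at −542 bp from the start of H2bc1. Of all genes marked by H4K91R, 96.3% had a lower highest fold. In the H4WT list the nearest region to the pair was 56.2 kb from H2ac1. The absence from H4WT is a missing call in 1 library and was not tested.

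No H3 gene was marked in any of the 4 lists (0 of 12, interval 0 to 26.5%). The nearest H4WT region lay 3.71 kb from H3c6, 4.67 kb from H3c4 and 5.72 kb from H3c3, and up to 216 kb from H3c10. Because 12 genes allow a share of up to 26.5%, this does not separate the H3 genes from the other classes.

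Of the 12 H4 genes, H4WT marked H4c4 (8.33%, 0.211 to 38.5), and H4K91R, H4K91Q and the empty vector marked 0. The H4c4 region (chr13:23581651-23581844) was 194 bp wide, with a fold of 6 and a −log10 q of 7.04, the highest of both among the H4WT regions at members. Its summit lay 189 bp into the 402 bp gene, and the region lay wholly inside it. In the other H4 genes the nearest H4WT region was 3.65 kb away for H4c6, 17.6 kb for H4c2, 21.5 kb for H4c1, 23.8 kb for H4c8, 33.8 kb for H4c9, 40.6 kb for H4c3 and 42.9 kb for H4c14. For H4c18, H4c17, H4c12 and H4c11 it was 113, 133, 195 and 210 kb away. Of these genes, which encode the same kind of protein as the transgene, 11 had no region and 1 had. H4WT marked 58.4% of all protein-coding genes and 7.44% of other genes no longer than 1 kb. The 8.33% of the H4 genes is near the latter share. Whether DNA of the transgene contributed to the H4c4 region was not tested.

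**Figure D2:**
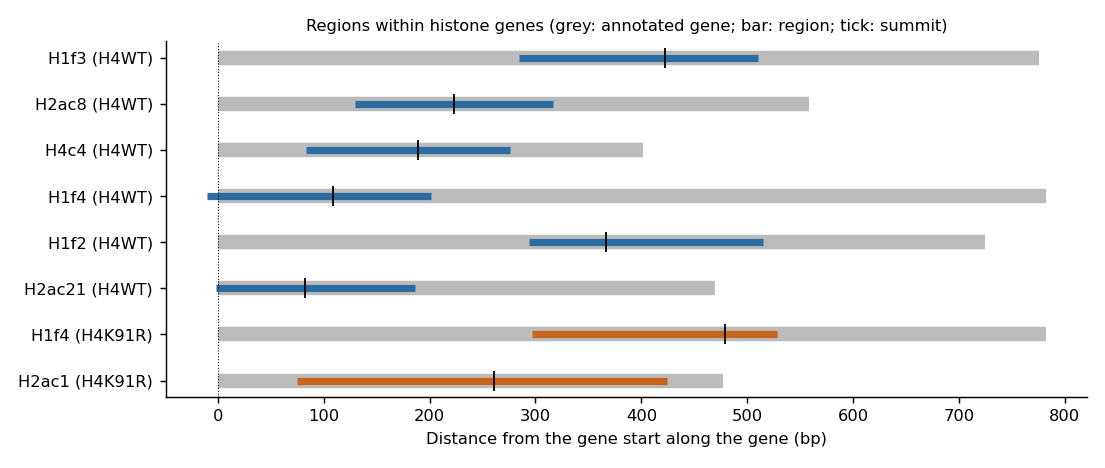
Grey bars show each annotated gene from its start (0 bp) along its own strand, coloured bars the called region and black ticks its summit, for 6 H4WT regions (blue) and 2 H4K91R regions (orange). All 8 summits lie inside a histone gene, and the H1f4 and H2ac21 regions of H4WT reach back across the gene start.

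In all, the 8 members marked by H4WT rested on 6 regions of 189 to 227 bp, and the 4 marked by H4K91R on 2 regions of 232 and 350 bp. The median width was 265 bp in the H4WT list and 270 bp in the H4K91R list. All 8 summits lay within a member rather than before its start, and 4 of the 6 H4WT regions and both H4K91R regions were wholly inside a member. The folds of the 6 H4WT regions ran from 4.33 at H2ac21 to 6 at H4c4, all below 7.39, the median over genes marked by H4WT of the highest fold at each gene. Between 4% and 26.4% of those genes had a lower value. Taken over single regions, the median fold of the H4WT list was 5.68. By that measure H4c4 and H1f2 lay above the median, with 56.8% and 50.5% of regions lower, and the others lay below. In the H4K91R list the H1f4 region was below, and the H2ac1 region above, 5.59, the median over marked genes of the highest fold. Folds are the authors' values and were compared within a list only.

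**Figure D3:**
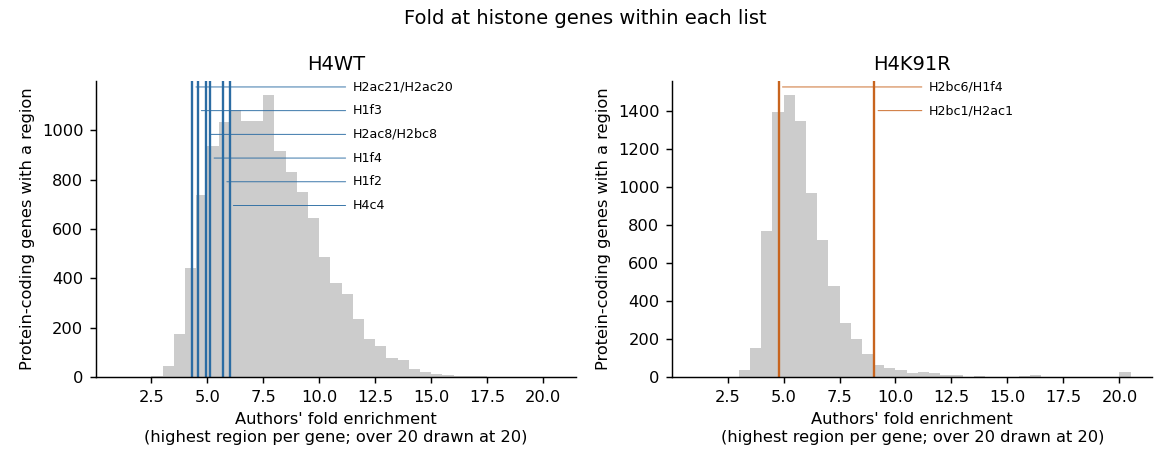
Grey histograms give the number of protein-coding genes by the authors' highest fold enrichment at the gene, in the H4WT and H4K91R lists, and coloured lines mark the regions at histone genes. The 6 H4WT lines lie between 4.33 and 6, below the median over genes of 7.39, and the H4K91R lines lie at 4.79 and 9.06. The median over single H4WT regions was 5.68.

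The clusters differed in where their regions fell. In the first chromosome 13 cluster 0 of 22 members were marked in any list (interval 0 to 15.4%). The second held 6 of the 31 for H4WT (19.4%, 7.45 to 37.5) and 4 for H4K91R (12.9%, 3.63 to 29.8), and the chromosome 3 cluster 2 of 10 for H4WT (20%, 2.52 to 55.6) and 0 for H4K91R. The intervals overlap between the clusters. Over all protein-coding genes the shares were 58.4% for H4WT, 37.9% for H4K91R, 1.27% for H4K91Q and 1.67% for the empty vector. Of the 39 other genes within 500 kb of the first cluster, H4WT marked 4 (10.3%) and H4K91R 2 (5.13%). Without receptor genes 14 of these were left, marked at 28.6% (8.39 to 58.1) and 14.3% (1.78 to 42.8). The 17 members of the first sub-cluster on chromosome 13, from H2bc13 to H2ac24, were 112 to 221 kb from the nearest H4WT region. From the same 17 the nearest H4K91R region was 6.72 to 69.5 kb away and the nearest H4K91Q region 4.2 to 84.8 kb. In distance to the nearest region, the members had a median of 26.6 kb for H4WT (range 0 to 221) and 50.8 kb for H4K91R (0 to 141). Other protein-coding genes had a median of 0 kb in both lists. A region anywhere in a gene counted as 0 kb, as in 14454 of 21824 other genes for H4WT. Other genes are mostly far longer than members, and no comparison at equal length was made, so length and distance cannot be told apart here. Neighbouring members also share a nearest region, so these are not 63 separate distances. Beyond 10 kb lay 73% of members for H4WT and 87.3% for H4K91R, against 25.5% and 36.5% of other genes. For H4K91Q the median was smaller in members (57.5 kb) than in other genes (111 kb), while 90.5% of members and 87.4% of other genes lay beyond 10 kb.

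**Figure D4:**
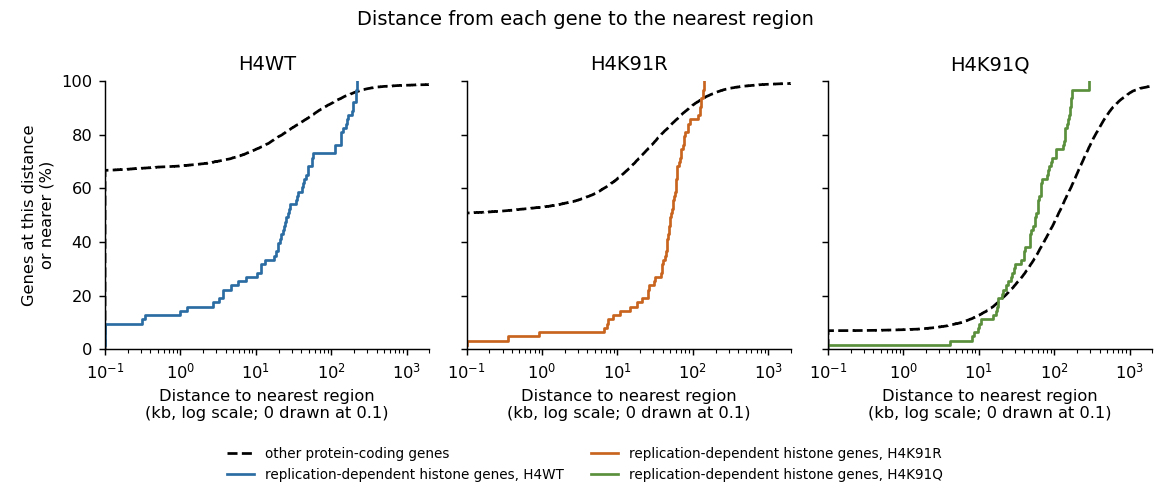
Curves give the percentage of genes (vertical axis) whose nearest region lies at or within the distance on the horizontal axis (kb, log scale), for 63 histone genes (solid) and the other protein-coding genes (dashed) in the 3 tagged lists. Histone genes have a median distance of 26.6 kb for H4WT and 50.8 kb for H4K91R, against 0 kb for other genes, and of 57.5 kb against 111 kb for H4K91Q. A region anywhere in a gene counts as 0 kb, and most other genes are far longer than the histone genes.

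Between the histone genes, regions lay mostly at other genes or in a single stretch. Outside the 1 kb windows of members, the 3 spans left 0.662 Mb. H4WT had 7 regions there (10.6 per Mb against 24.6 per Mb of the genome), H4K91R 3 (4.53 against 17.6), H4K91Q 6 (9.07 against 5.22) and the empty vector 0 (against 1.1). In covered bases per kb of this space, H4WT had 3.21 against 8.47 in the genome, H4K91R 1.76 against 5.89, and H4K91Q 3.02 against 2.23. Of the 7 H4WT regions, 6 lay in non-histone genes of the first chromosome 13 cluster. The highest was at Pom121l2 (chr13:21981268-21981807, fold 9.51), a gene related to a nuclear pore protein, followed by Zfp184 (chr13:21945263-21945515, fold 6.38), a zinc finger gene. A second Pom121l2 region (chr13:21981913-21982209) had a fold of 5.61, and Prss16, which encodes a serine protease of the thymus, held 3 regions of fold 3.76 to 4.73. The seventh (chr13:23566092-23566280, fold 3.96) lay 3707 bp from H3c6.

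Both mutants had a region in 1 stretch between the sub-clusters of the first chromosome 13 cluster, 42040 bp or more from the nearest protein-coding gene, Zfp184. There H4K91Q had 4 regions (chr13:21900103-21903013), the widest of 821 bp with a fold of 5.68 and a −log10 q of 11.4, and H4K91R had 1 (chr13:21901724-21902113, fold 6.29). H4WT had 0 there. H4K91R also had a region at Pom121l2 (fold 7.32), in the same place as H4WT, and 1 at chr13:21761273-21761496 (fold 5.61), 6720 bp from H2bc15. The other H4K91Q regions lay 4199 bp from H2bc14 (chr13:21726725-21726930, fold 3.88) and inside the long annotation of H2bc6 (chr13:23591869-23592067, fold 3.51), far from both ends of that gene. The first chromosome 13 span also holds 31 tRNA genes, and 0 of them had a region within 1 kb in any list. The share over all tRNA genes was not computed, so this count cannot be called low or usual for tRNA genes.

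**Figure D5:**
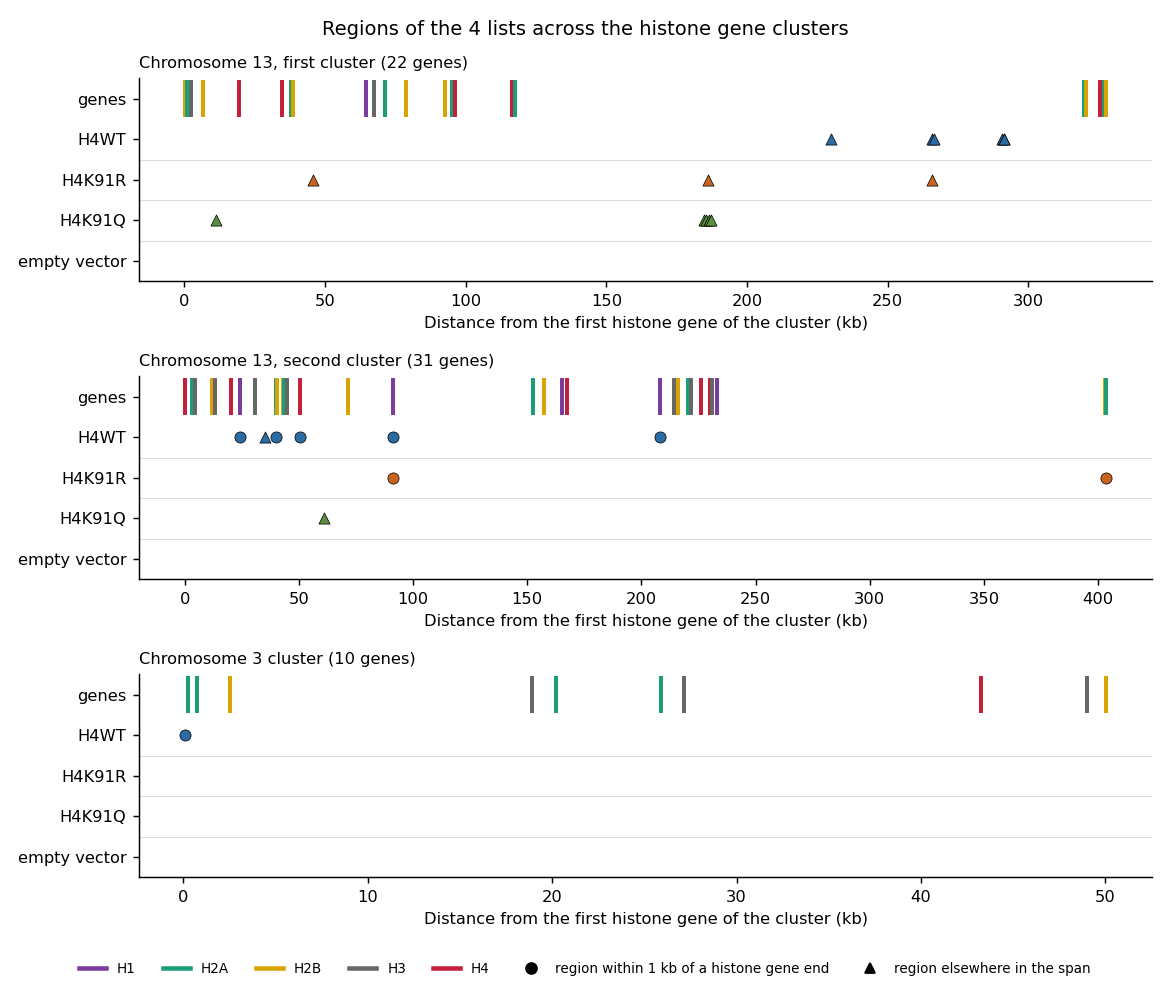
Vertical bars mark histone genes by class along the 3 clusters (distance in kb from the first gene, to scale within each panel), circles the regions within 1 kb of a histone gene end and triangles the other regions of the span, for the 4 lists. The first chromosome 13 cluster has triangles only, and the empty-vector row has 0 regions in each panel.

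Histone genes outside the rule, mostly replacement variants made throughout the cell cycle from single genes, were marked at higher shares, though this difference was not tested. Of 18 symbols in the list 16 were found, and H4WT marked 12 (75%, 47.6 to 92.7) and H4K91R 10 (62.5%, 35.4 to 84.8), with intervals that include the 58.4% and 37.9% of all genes. Of these 16 genes 13 are longer than 1 kb, against 5 of the 63 members, and no comparison at equal length was made. H4K91Q and the empty vector marked 0. The highest H4WT folds were 12.8 at H3f3a (a gene for the H3.3 variant), 9.51 at H1f0 (a linker histone of resting cells), 8.37 at H1f10 and 7.32 at H2az1 (H2A.Z). H4f16, an H4 gene on chromosome 6 that the rule does not take, was marked by H4WT at a fold of 5.36. On chromosome 11, H3f4 was marked by H4WT (4.95) and H4K91R (5.43) and H2bu2 by H4K91R (5.13). H2aw of the same group, added after its value was seen, was marked by H4WT at 8.15. H3f3b, H1f8, Cenpa and H2bu2 were unmarked by H4WT.

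Of the 30 genes that regulate the histone genes or process their mRNAs, H4WT marked 25 (83.3%, 65.3 to 94.4), against 58.4% of all protein-coding genes. H4K91R marked 15 (50%, 31.3 to 68.7), and this interval includes the 37.9% of all genes. H4K91Q and the empty vector marked 0. The highest H4WT folds were 12.1 at Cpsf3, the endonuclease that cuts histone pre-mRNA, 11.4 at Slbp, 10.9 at E2f1 and 10.5 at Ccne2, a cyclin E gene. Npat had a fold of 7.45 in H4WT and was unmarked by H4K91R. Zfp473, Ccna2, Nfyc, Cstf2t and Nasp were unmarked by H4WT. All 30 genes of this list are longer than 1 kb, and they too were not compared at equal length.

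Some members share long runs of promoter sequence with each other or with H4bc24, a gene of the first chromosome 13 span that the rule does not take. H4bc24 was unmarked in all 4 lists and is counted among the other genes within 500 kb. In 11 of 58 promoter windows at least 1 run of 50 bases recurred in another promoter window of the table, and in 9 of them over 50% of all such runs did so. The share of recurring runs was 100% for H2bc23, shared most with H4bc24. It was 94% for H4c17 and H4c18 and 74.1% for H3c14 and H3c15, each shared most with the other of its pair. None of the members marked by H4WT or H4K91R was among the 11. How reads with several places in the genome were treated is not given in the sources used here, the transcribed parts were not examined, and the part of repeated sequence in the missing calls was not tested.

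The counts depend on weak regions. With regions of −log10 q of 5 or more, H4WT marked 3 members, H1f2, H1f4 and H4c4, against 54% of all protein-coding genes, and H4K91R marked 2, H2ac1 and H2bc1, against 25.1%. With the tagged lists shortened to equal length, H4WT marked 0 members against 29.2% of all, and H4K91R the same pair against 14.1%. Windows of 2 kb gave 10 members against 62.5% for H4WT and 4 against 43.7% for H4K91R. The H2ac1 and H2bc1 region was the only one at a member that stood under each of these settings.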

How the data were processed

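HA ChIP-seq peak lists of 4 mouse embryonic stem cell pulldowns were used, 1 library per group, with groups taken from the sample titles. Cells were fixed with paraformaldehyde, chromatin was sonicated and libraries came from NEBNext Ultra II kits, per the labels' protocols. Peaks were called with MACS2 on mm10, per the submitters' processing notes, and peak names show the input of the same line as control. Neither the MACS2 version nor the aligner nor the q threshold was given in the sources used. The deposited fold enrichment (a ratio over the local background) ranked regions within a list. The deposited −log10 q served to filter regions and shorten lists, the deposited −log10 p was not used, and the deposited score was, for 100% of peaks, 10 times this value without its decimals. The offset of the summit, as deposited, gave summit positions. The lowest deposited −log10 q was 1.77 (empty vector), 1.40 (H4WT), 1.58 (H4K91R) and 1.40 (H4K91Q).

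Regions of the tagged lists that shared 1 bp or more with the empty-vector list were removed. Genes came from the RefSeq table of GRCm38.p6. Clusters were members less than 1 Mb apart, sub-clusters less than 100 kb apart. Genome length was taken from the highest coordinate per chromosome. Strand and promoter windows came from the RefSeq promoter table. No test between groups was made. Shares carry exact Clopper-Pearson 95% intervals. The marking step was tested on simulated data. Python 3.11.15, pandas 2.3.3, numpy 2.4.6, scipy 1.17.1 and matplotlib 3.10.9 were used.

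Members, gene lists and rules were chosen with earlier results of these data known. The rule for named genes took H4c4, H1f2, H1f4, every H4 gene, every member that a mutant but not H4WT marked, every member marked by H4K91Q or the empty vector (0), and the 3 highest and 3 lowest folds in H4WT and H4K91R. Other members could be named. Of the related lists it took up to 4 genes of highest H4WT fold, and those further named were chosen after their values were seen. Between members it took the genes a region overlapped. Alternatives were lists of equal length, a minimum −log10 q of 5, keeping regions shared with the empty vector, narrower (500 bp) and wider (2 kb) windows, the gene start alone, the summit in place of any overlap, and an overlap of 50%. Short genes without receptors, neighbours within 500 kb, the chromosome 11 group, H2aw and H4bc24 were added after seeing the data.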

Additional observations from a re-analysis of the deposited data

How the results depend on the processing

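With regions of −log10 q of 5 or more, H4WT marked 3 members through 3 regions and H4K91R 2 through 1, and members marked by both fell from 1 to 0. Between members 4 H4WT and 3 H4K91Q regions were left. H4K91R marked 8 of the 30 regulators of histone genes in place of 15, against 25.1% of all protein-coding genes at this threshold. With the tagged lists shortened to equal length, H4WT marked 0 members through 0 regions and H4K91R 2 through 1, with 0 marked by both and 1 H4WT region between members. Both lists then marked 6 of the 16 histone genes outside the rule, and the regulators marked were 13 of 30 for H4WT and 4 of 30 for H4K91R. At equal length the shares of all protein-coding genes were 29.2% for H4WT and 14.1% for H4K91R. Windows of 2 kb raised the members marked by both to 2. Shorter lists hold fewer regions by construction, and beyond that the cause was not tested. The other 137 recomputed counts and median folds that answer a comparison stayed within 1.5 times the reported value. Among them were all those with empty-vector regions kept, with windows of 500 bp, with the summit inside the window and with the gene start alone. The 137 include counts that were 0 in both, such as every count of the empty vector and the members marked by H4K91Q. A count of 0 cannot fall when a list is shortened, so those say nothing about stability. Requiring an overlap of 50% left 0 regions shared by H4WT and H4K91R at members, as the 1 bp rule did. A stricter overlap cannot raise a count of 0, so this too says nothing about stability. The lists hold no read numbers, so what depth limits could not be measured. No paired analysis was possible because each group had 1 library and no result came from a test.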
